A study of Mus musculus with 4 samples.

Results

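The data described here are the transcript levels of 9 mouse genes of the interferon response in morulae, chosen by symbol: Stat2, Irf1, Ifi35, Ifitm1, Ifitm2, Ifitm3, Bst2, Isg15 and Ifi27. They are 9 of 24411 genes listed in each library, and 8 of them had enough counts to be among the 13585 genes tested. The siPwp1 group (2 libraries) is ICR embryos made by in vitro fertilization that were electroporated with siRNA against Pwp1 at 3 hours post-insemination (hpi), and the siControl group (2 libraries) is embryos handled in the same way with control siRNA. Both groups were then cultured in KSOM, with added bovine serum albumin, until 72 hpi, and 10 morulae were pooled into each polyA library. Whether the replicates came from separate cultures is not labelled, and the p-values therefore reflect the spread among these 4 libraries alone, which may be technical. The question addressed is what targeting Pwp1 changes in the transcripts of the morula.

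Interferons are secreted proteins that bind paired receptors on the cell surface. Type I interferons act through the kinases Jak1 and Tyk2 and a complex that includes Stat2 and Irf9, which binds a promoter motif called the interferon-stimulated response element (ISRE). Interferon gamma acts through Jak1 and Jak2, and promoters that answer it carry the gamma-activated sequence (GAS). Mouse and human pluripotent cells are known to respond weakly to interferon and to keep some of its effector genes on without it. The Ifitm genes encode membrane proteins that hinder virus entry, and in the mouse they are also known from the germ line as the fragilis family.

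Depth ranged over 28981358 to 48765229 expected counts per library, and 15149 to 15976 genes had a count. Pwp1 stood at 36.9 and 37.2 CPM (counts relative to library size, scaled by TMM) in siPwp1, against 215 and 365 CPM in siControl. This 7.83-fold lower level was not called over all genes by edgeR (adjusted p = 0.22), while DESeq2 called it (adjusted p = 1.47e-12). Of 12 morula markers, all were detected, and the summed level was 19960 and 25710 TPM (a level per transcript length, relative to the library) in siPwp1 and 20430 and 23400 TPM in siControl, nearly all of it Dppa3. Pou5f1, Nanog and Tfcp2l1 were lower in both siPwp1 libraries than in both siControl libraries, 0 of the 12 were higher in both, and the median log2 fold change of the 12 was -0.46. Sox2 (-3.07), Cdx2 (-1.38) and Gata3 (-1.19) had the lowest log2 fold changes, with overlapping groups. The value of Sox2 rested on siControl replicate 1, with 37 and 7 counts in siPwp1 and 235 and 9 counts in siControl. The part of these markers in the levels of the interferon response genes was not tested. In bulk samples such as these, fewer cells that express a gene and less of its RNA per cell cannot be told apart. Across all genes, edgeR's quasi-likelihood test called 0% higher and 0% lower at an adjusted p under 0.05, with 1.84% higher and 0.824% lower at an unadjusted p under 0.05. DESeq2 called 0.309% higher and 0.0147% lower. Both siPwp1 libraries were above both siControl libraries for 14.7% of all genes and below both for 14.1%.

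Promoter windows (250 bases before to 50 after the annotated start) were found in RefSeq, build GRCm38.p6, for 8 of the 9 genes. The ISRE core was searched as GAAA and GAAA with any 2 bases between them, and the GAS as TTC and GAA with any 3 bases between them, each on both strands. An ISRE core was present for 5 of the 8 genes and in 3.44% of all 32851 windows, and a GAS for 4 of the 8 and in 8.3% of all windows. The letters are shown for 4 genes that differ in their levels in the morula: Isg15 (minus strand, chr4:156200819-156201068), nearly silent in all libraries, Ifitm2 (minus strand, chr7:140955962-140956211), the most abundant of the 9, Bst2 (minus strand, chr8:71537473-71537722), whose replicates differed more than its groups, and Irf1 (plus strand, chr11:53769764-53770013), which was nearly without counts in siControl. Each is the 250 bases before the start, 5′ to 3′ on the gene's strand, with ISRE and GAS matches in capitals.
Isg15: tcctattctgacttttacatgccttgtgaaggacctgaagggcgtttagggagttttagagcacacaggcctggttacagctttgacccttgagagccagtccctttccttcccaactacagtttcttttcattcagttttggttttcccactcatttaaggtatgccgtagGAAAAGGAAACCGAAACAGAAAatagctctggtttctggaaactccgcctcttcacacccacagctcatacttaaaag
Ifitm2: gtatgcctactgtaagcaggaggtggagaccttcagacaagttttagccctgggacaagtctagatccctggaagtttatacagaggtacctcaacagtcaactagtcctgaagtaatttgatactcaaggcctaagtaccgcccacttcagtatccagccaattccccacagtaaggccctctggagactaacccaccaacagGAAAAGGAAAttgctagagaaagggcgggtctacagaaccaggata
Bst2: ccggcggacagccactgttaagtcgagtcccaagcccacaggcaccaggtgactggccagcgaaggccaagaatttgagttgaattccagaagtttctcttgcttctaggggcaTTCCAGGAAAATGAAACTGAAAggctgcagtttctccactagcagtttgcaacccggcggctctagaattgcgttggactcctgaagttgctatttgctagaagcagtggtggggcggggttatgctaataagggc
Irf1: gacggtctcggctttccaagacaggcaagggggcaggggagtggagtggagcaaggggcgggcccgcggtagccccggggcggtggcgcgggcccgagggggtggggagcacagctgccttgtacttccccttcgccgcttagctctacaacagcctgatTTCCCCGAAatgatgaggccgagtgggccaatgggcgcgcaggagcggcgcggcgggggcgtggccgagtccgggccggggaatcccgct
Isg15 has 3 overlapping ISRE cores, which begin 78, 72 and 66 bases before the start. Bst2 has 2 overlapping ISRE cores, 130 and 124 bases before the start, and a GAS 136 bases before it that overlaps the first of them. Ifitm2 has a single ISRE core 46 bases before the start, and Irf1 a GAS 90 bases before it. Stat2 has an ISRE core 222 bases before its RefSeq start. Its window ends at base 128270547 of chromosome 10, before the GENCODE M21 gene start at 128270559. Ifitm3 has ISRE cores that begin 2 and 19 bases after its annotated start, with a GAS at 13 bases, and Ifi35 has a GAS 7 bases after its start. The Ifitm1 window and the second Irf1 window hold neither motif.

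Levels per length spanned the whole range from abundant to barely detected. Ifitm2 stood at 404.66 and 298.71 TPM in siPwp1 and 291.76 and 244.55 TPM in siControl, a mean level above 97.6% of listed genes. Ifi35 followed with a mean over the 4 libraries of 32.6 TPM, then Bst2 with 19.6, Ifitm1 with 9.07, Ifitm3 with 5.46, Ifi27 with 2.1, Stat2 with 1.97, Irf1 with 0.242 and Isg15 with 0.167 TPM. The 4-library ranges did not overlap between Ifitm2 and Ifi35, nor between Stat2 and Irf1. All other neighbours in this order overlapped in range. Within libraries, Ifitm3 was above Ifi27 in 4 of 4, Ifi35 above Bst2, Ifitm1 above Ifitm3, Ifi27 above Stat2 and Irf1 above Isg15 in 3 of 4 each, and Bst2 above Ifitm1 in 2 of 4.

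**Figure D1:**
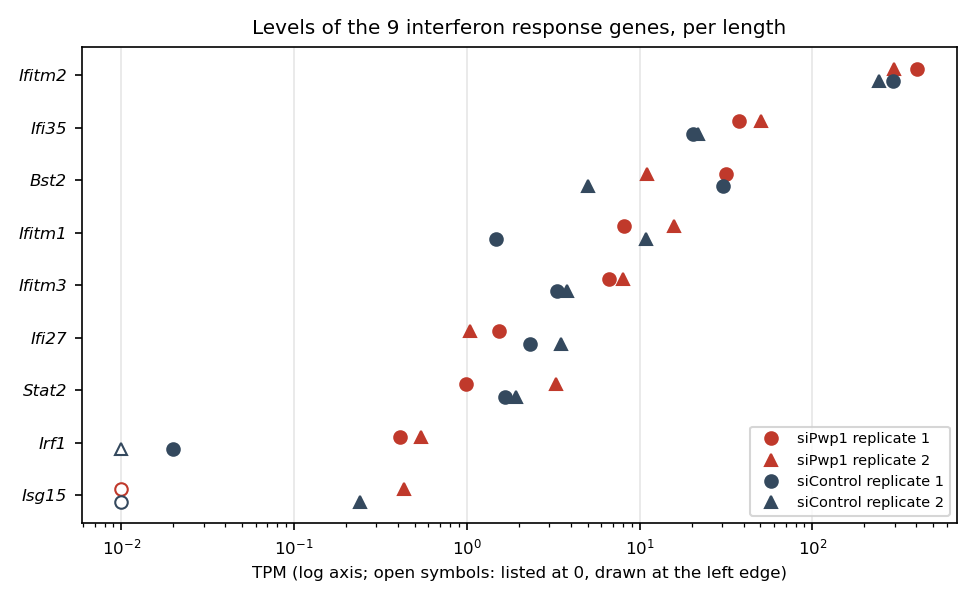
Level of each of the 9 genes in TPM on a log axis, 1 symbol per library, with red for siPwp1 and dark blue for siControl, circles for replicate 1 and triangles for replicate 2. Ifitm2 lies between 244.55 and 404.66 TPM in all libraries, while Irf1 and Isg15 stay at or below 0.54 TPM.

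In the comparison of siPwp1 with siControl, edgeR called 0 of the 8 tested genes over all 13585 genes (adjusted p = 0.9998 for each), and DESeq2 called 0 as well. EdgeR did not call the siRNA target Pwp1 either, so 0 calls do not show that these genes were unchanged. At an unadjusted p under 0.05 there were 2, Ifi35 and Irf1, where 2.66% of all genes were in either direction, and both were higher in siPwp1, where 1.84% of all genes were. Ifi35, Irf1 and Ifitm3 were higher in both siPwp1 libraries than in both siControl libraries, where 14.7% of all genes were. Ifi27 was lower in both, where 14.1% of all genes were, and the groups overlapped for the other 4 tested genes. The log2 fold change of siPwp1 over siControl was above 0 for 7 of the 8, with a median of 0.64, where 49.9% of all genes were above 0 and the median of all genes was 0. Irf1 passed the filter on low counts through its siPwp1 libraries alone, and the 9 genes were chosen with earlier results of these data known. These counts therefore describe the 8 genes that passed and are no test of the 9.

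**Figure D2:**
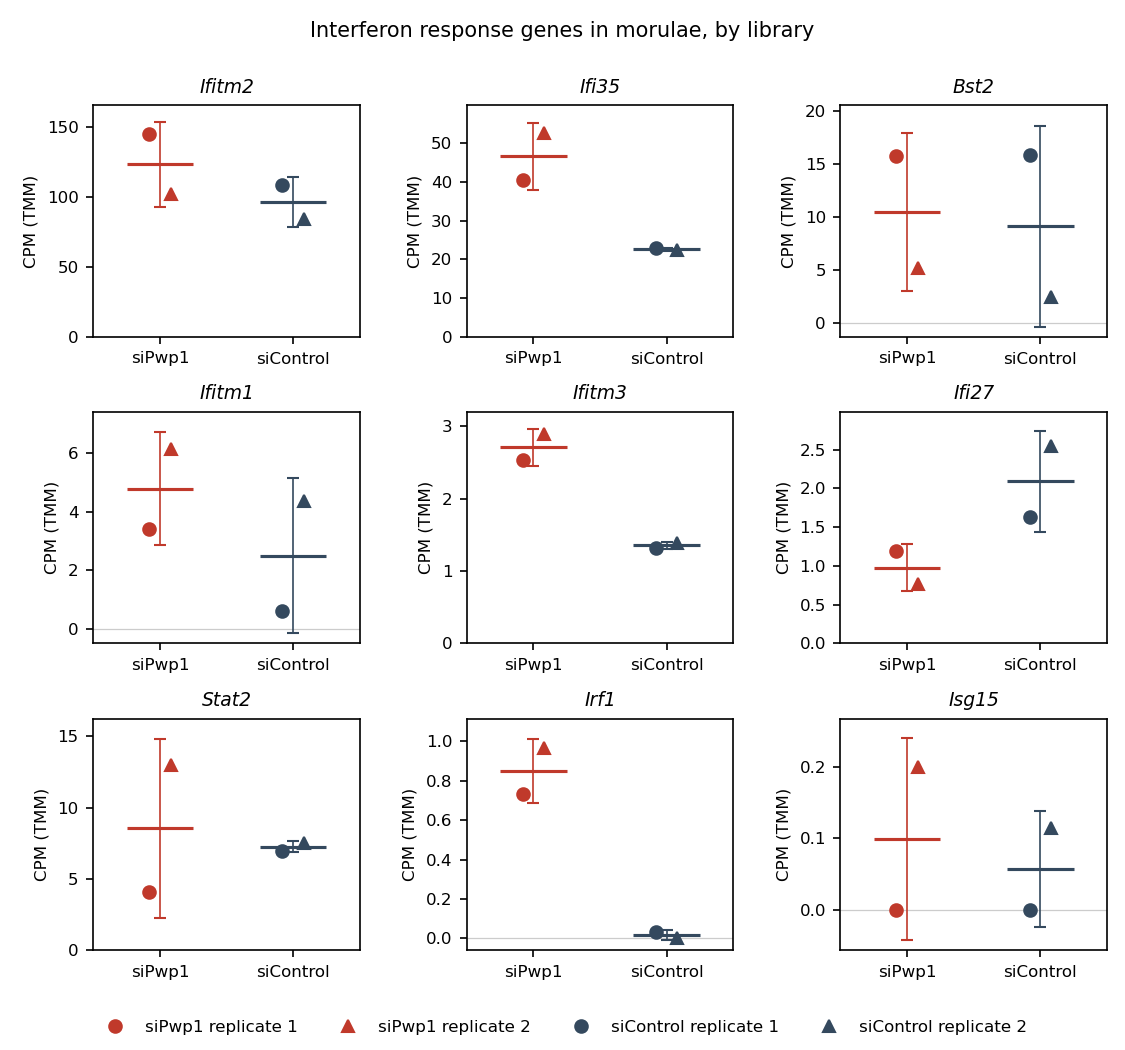
CPM of each gene by library, with siPwp1 at the left and siControl at the right of each panel. Horizontal lines are group means and bars are SD (n = 2). The groups are apart for Ifi35, Ifitm3 and Irf1 (higher in siPwp1) and for Ifi27 (lower in siPwp1), and overlap for the rest.

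Among the transcription factors, Irf1, which is known as an interferon gamma target that itself binds interferon promoters, had 37 and 29 counts in siPwp1, against 1 and 0 counts in siControl. Both siPwp1 libraries were thus above both siControl libraries, which were under a floor of 3 counts. Summed over libraries this was 66 counts in siPwp1 and 1 in siControl, a ratio of 59.6 per unit of depth with a 95% exact interval of 10.3 to 2390 that covers counting error only. In CPM, Irf1 averaged 0.848 ± 0.163 in siPwp1 and 0.0174 ± 0.0245 in siControl (SD, n = 2 each). Its unadjusted p was 0.017 with edgeR and 0.00568 with DESeq2, and its adjusted p was 0.9998 with edgeR and 0.515 with DESeq2. Without siControl replicate 2, the unadjusted edgeR p was 0.0654. This protein-coding gene occupies bases 53770014 to 53778374 of chromosome 11 (GRCm38, plus strand). A gene on the other strand, Gm17334, overlaps it by 907 bases, and without a stated strand setting reads of the 2 genes cannot be told apart.

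Stat2, the Stat protein specific to type I and type III interferon signals, had 205 and 390 counts in siPwp1 and 201 and 331 counts in siControl. In CPM these are 4.06 and 13 in siPwp1, against 6.98 and 7.53 in siControl. The siPwp1 libraries lay on either side of the siControl pair and differed 3.19-fold from each other, while the siControl libraries differed 1.08-fold. The log2 fold change was 0.23 (SE 0.59), and it turned to -0.83 without siPwp1 replicate 2. Stat2 is protein-coding and occupies bases 128270559 to 128292849 of chromosome 10 (plus strand).

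Ifi35, an interferon-induced protein that partners with Nmi, had 2045 and 1588 counts in siPwp1 and 659 and 986 counts in siControl. It averaged 46.6 ± 8.67 CPM in siPwp1 and 22.7 ± 0.309 CPM in siControl (SD, n = 2 each). Both siPwp1 libraries, at 40.5 and 52.7 CPM, were above both siControl libraries, at 22.9 and 22.4 CPM. The difference was 2.06-fold, with a log2 fold change of 1.04 (SE 0.302) and an unadjusted edgeR p of 0.0111. It did not pass over all genes with edgeR (adjusted p = 0.9998) or DESeq2 (adjusted p = 0.308). Leaving out each library in turn gave log2 fold changes of 0.84 to 1.22, with an unadjusted p of 0.119 without siPwp1 replicate 2. Ifi35 is protein-coding and occupies bases 101448407 to 101458698 of chromosome 11 (plus strand), where the antisense gene Gm11626 overlaps it by 815 bases. Its partner gene Nmi stood at 0.3 and 0.98 TPM in siPwp1 and 0.37 and 0.7 TPM in siControl, and was chosen after its values were seen.

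The 3 protein-coding Ifitm genes lie within 55.9 kb on chromosome 7, with Ifitm2 at 140954837 to 140955987 (minus strand), Ifitm1 at 140967221 to 140969825 (plus strand) and Ifitm3 at 141009586 to 141010770 (minus strand). Ifitm2 made up 96.5% and 92.6% of their summed TPM in siPwp1 and 98.4% and 94.3% in siControl. Ifitm2 had 7332 and 3072 counts in siPwp1 and 3152 and 3698 counts in siControl, or 145 and 102 CPM against 109 and 84.1 CPM. The groups overlapped, with replicate 1 above replicate 2 in each, and the log2 fold change was 0.35 (SE 0.293, adjusted p = 0.9998 with edgeR). Gm45717, annotated on the same strand, overlaps Ifitm2 by 1101 bases and is not among the genes listed in each library. The 3 genes summed to 151.1 and 111.1 CPM in siPwp1 and 111.3 and 89.89 CPM in siControl. The groups overlapped here too, and the two-sided exact permutation p was 0.667, where 2 against 2 allows no p below 0.333.

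Ifitm3 had 128 and 87 counts in siPwp1 and 38 and 61 counts in siControl, with little spread once scaled. It averaged 2.71 ± 0.252 CPM in siPwp1 and 1.35 ± 0.0488 CPM in siControl (SD, n = 2 each). Both siPwp1 libraries, at 2.53 and 2.89 CPM, were above both siControl libraries, at 1.32 and 1.39 CPM. The log2 fold change was 1 (SE 0.631), a 2-fold difference that did not pass (adjusted p = 0.9998 with edgeR). Leaving out each library kept the log2 fold change between 0.91 and 1.09.

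Ifitm1 had 173 and 185 counts in siPwp1 and 18 and 192 counts in siControl. In CPM it stood at 3.42 and 6.14 in siPwp1, against 0.625 and 4.37 in siControl. Replicate 2 was the higher library in both groups, by 1.79-fold in siPwp1 and 6.99-fold in siControl, and the groups overlapped. The log2 fold change of 0.93 (SE 0.887) rested on siControl replicate 1, since it was 0.13 without that library and 2.92 without siControl replicate 2 (adjusted p = 0.173 with edgeR). Ifitm1, Ifitm2 and Ifitm3 are near relatives that can share reads. Their expected counts, like those of the other 6 genes, were whole numbers within 1e-09 in all 4 libraries.

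Bst2, also called tetherin, holds budding virus particles at the cell surface. It had 793 and 157 counts in siPwp1 and 454 and 105 counts in siControl, or 15.7 and 5.21 CPM against 15.8 and 2.39 CPM. Replicate 1 was 3.01-fold above replicate 2 in siPwp1 and 6.6-fold above it in siControl, so the replicates differed more than the groups. The log2 fold change was 0.21 (SE 0.887, adjusted p = 0.9998 with edgeR). Without siPwp1 replicate 1 it turned to -0.8 and without siControl replicate 2 to -0.59, while it was 2.13 without siControl replicate 1. Bst2 is protein-coding and occupies bases 71534255 to 71537456 of chromosome 8 (minus strand).

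Isg15 encodes a ubiquitin-like protein that is attached to other proteins in cells exposed to type I interferon. It had 0 and 6 counts in siPwp1 and 0 and 5 counts in siControl, too few for the test. Both replicate 1 libraries were without a count, and a count of 3 corresponds to 0.0594 and 0.0996 CPM in the siPwp1 libraries and 0.104 and 0.0683 CPM in the siControl libraries. The ratio of summed counts, 6 against 5, was 1.08 per unit of depth, with a 95% exact interval of 0.275 to 4.49 that covers counting error only. Isg15 is protein-coding and occupies bases 156199424 to 156200818 of chromosome 4 (minus strand).

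Ifi27, a small membrane protein gene induced by type I interferon, was the 1 tested gene with a fold change below 0. It had 60 and 23 counts in siPwp1 and 47 and 112 counts in siControl. It averaged 0.976 ± 0.3 CPM in siPwp1 and 2.09 ± 0.648 CPM in siControl (SD, n = 2 each). Both siPwp1 libraries, at 1.19 and 0.764 CPM, were below both siControl libraries, at 1.63 and 2.55 CPM. The log2 fold change was -1.09 (SE 0.749, adjusted p = 0.9998 with edgeR). Ifi27 is protein-coding and occupies bases 103434211 to 103440239 of chromosome 12 (plus strand).

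**Figure D3:**
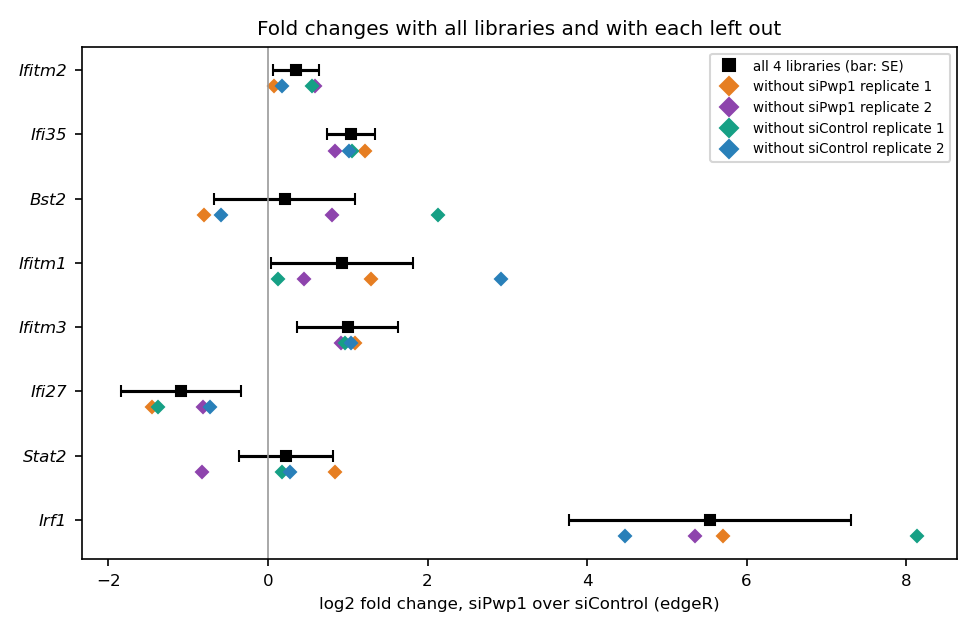
Log2 fold change of siPwp1 over siControl with its SE (black squares) for the 8 tested genes, and the same with each library left out (coloured diamonds). The diamonds stay between 0.84 and 1.22 for Ifi35 and lie on both sides of 0 for Bst2 and Stat2. The fitted value of Irf1 depends on edgeR's prior count because 1 siControl library had no count.

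The 8 tested genes differed in their profiles over the libraries. The distance of each gene's centred log2 CPM profile from the mean profile of the 8 was smallest for Ifitm3 (0.259) and largest for Bst2 (2.08). Of all other genes tested, the profiles nearest to that mean over 4 libraries were those of 5730408K05Rik, Tmem203 and Agmat, at distances of 0.0207, 0.0352 and 0.0533.

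The wider pathway was read from lists by role, 146 genes that leave out the 9, of which 114 had a count in some library and 80 were tested. With edgeR 0 of the 80 were called, 4 were higher and 2 lower at an unadjusted p under 0.05, and 12 were higher and 13 lower without overlap of the groups. Among the 4, Irgm1, Herc6 and Mx2 passed the filter on low counts through their siPwp1 libraries alone. The counts and medians given here thus describe the 80 genes that passed and are no test of the 146. Of all genes, 1.84% were higher and 0.824% lower at that unadjusted p, and 14.7% were higher and 14.1% lower without overlap, so the counts without overlap were near those of all genes. Their median log2 fold change was -0.07, where that of all genes was 0. By role the medians were -0.13 for 6 receptors, -0.33 for 6 signal transducers, -0.50 for 7 interferon regulatory factors, -0.08 for 18 nucleic acid sensors and adaptors, 0.22 for 31 other interferon-induced genes and 0.10 for 11 negative regulators.

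**Figure D4:**
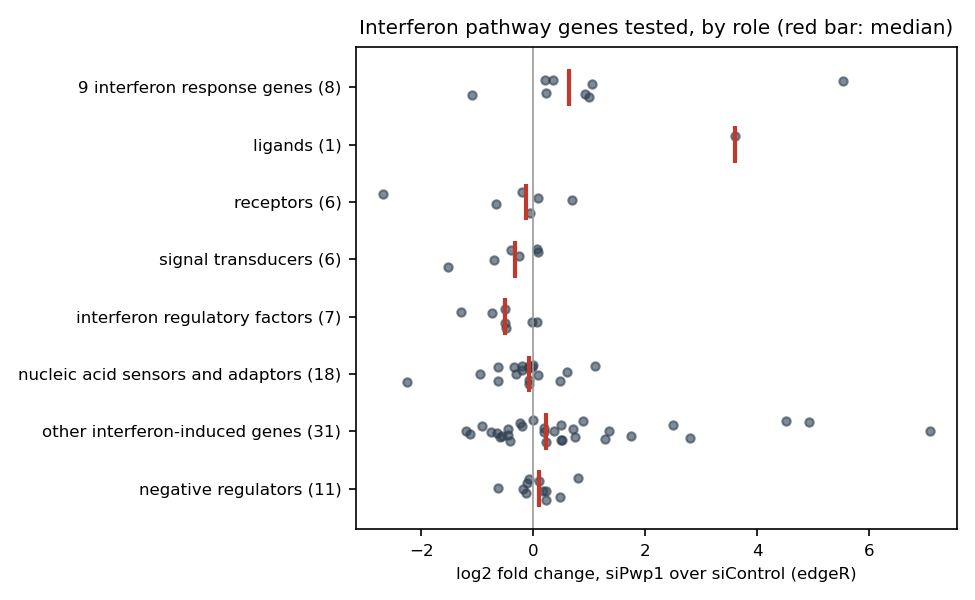
Log2 fold change of siPwp1 over siControl for each tested gene (dots), by role, with the number tested in brackets and the median as a red bar. The medians of the lists with 6 or more genes other than the top row lie between -0.50 and 0.22, and Ifng at 3.61 is the tested ligand.

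Among 21 ligand genes, 19 had no count in any library, among them all type I genes listed other than Ifnk, which had 23 counts in siPwp1 replicate 1 alone. The exception was Ifng, which encodes interferon gamma. Ifng had 1441 and 1029 counts in siPwp1, against 21 and 191 counts in siControl. It averaged 31.3 ± 4 CPM in siPwp1 and 2.54 ± 2.56 CPM in siControl (SD, n = 2 each). Both siPwp1 libraries, at 28.5 and 34.2 CPM, were above both siControl libraries, at 0.729 and 4.35 CPM. The difference was 12.2-fold, with a log2 fold change of 3.61 (SE 0.784) and an unadjusted edgeR p of 0.00263. Over all genes edgeR did not call it (adjusted p = 0.9998), while DESeq2 did (adjusted p = 8.1e-05). Leaving out a library leaves a lone library in its group, which is then assumed to vary like the pair of the other group. Under that assumption edgeR called Ifng when siControl replicate 2 was absent (log2 fold change 5.42, adjusted p = 1.36e-05), when siPwp1 replicate 1 was absent (adjusted p = 4.31e-06) and when siPwp1 replicate 2 was absent (adjusted p = 7.68e-05). When siControl replicate 1 was absent, the log2 fold change was 2.85 and Ifng was not called (adjusted p = 0.139). The prior degrees of freedom of edgeR were 4.84 with all libraries and 9.8 or more in those fits, so the p-values do not compare like with like. Ifng is protein-coding and occupies bases 118441046 to 118445892 of chromosome 10 (plus strand), where Gm49751 on the same strand overlaps it by 2722 bases.

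The receptor of interferon gamma and its kinases were detected at modest levels. Ifngr1 stood at 4.4 and 2.84 TPM in siPwp1 and 2.62 and 4.97 TPM in siControl, and Ifngr2 at 4.03 and 4.51 TPM in siPwp1 and 3.66 and 4.33 TPM in siControl. Jak1 had a mean of 9.73 TPM, Tyk2 of 2.92 and Jak2 of 2.25 TPM over the 4 libraries. Irf9 had a mean of 2.93 TPM and Stat3 of 2.78 TPM. The type I receptor genes Ifnar1 and Ifnar2 had means of 0.92 and 0.797 TPM, and Ifnlr1, of the type III receptor, had 29 and 2 counts in siPwp1 and 3 and 28 counts in siControl. Il10rb, a receptor chain shared with interleukin 10, had few counts, 16 and 8 in siPwp1 and 26 and 126 in siControl. In CPM it stood at 0.317 and 0.266 in siPwp1 and 0.902 and 2.87 in siControl, with both siPwp1 libraries below both siControl libraries. Its log2 fold change was -2.68 (SE 0.998, adjusted p = 0.9998 with edgeR), and -1.62 without siControl replicate 2.

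Of 69 further genes on the list of interferon-induced genes, 38 had too few counts for the test. Of these, 12 had no count in any library, including Oas3, Ifit3, Rtp4 and Gbp2, as did the feedback regulator Usp18. Ifi30, a thiol reductase gene of lysosomes, was the most abundant at 28.08 and 15.39 TPM in siPwp1 and 46.98 and 15.03 TPM in siControl, with overlapping groups. Psmb9, an immunoproteasome subunit gene, stood at 5.15 and 6.56 TPM in siPwp1 and 10.43 and 2.67 TPM in siControl.

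Besides Ifng, 3 genes were higher in siPwp1 at an unadjusted p under 0.05, all at few counts. They passed the filter on low counts through their siPwp1 libraries alone, where they are high, so their p and their direction are given as a description. Irgm1, an immunity-related GTPase gene, had 19 and 46 counts in siPwp1 and 1 and 1 in siControl, a ratio of 29.3 with a 95% exact interval of 7.8 to 247. Herc6, which encodes the mouse ligase for Isg15, had 71 and 30 counts in siPwp1 and 0 and 4 in siControl, a ratio of 22.8 (8.63 to 85.2). Gm45193 on the same strand overlaps Herc6 by 45031 bases, and Gm19244 on the other strand by 253 bases. Mx2, annotated as a polymorphic pseudogene, had 16 and 17 counts in siPwp1 and none in siControl. Set against a floor of 3 counts over the siControl group, Mx2 was 9.93-fold higher, and the 95% exact interval of its ratio began at 7.63. These intervals cover counting error only, and 0 of the 3 passed over all genes with edgeR (adjusted p = 0.9998 each).

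**Figure D5:**
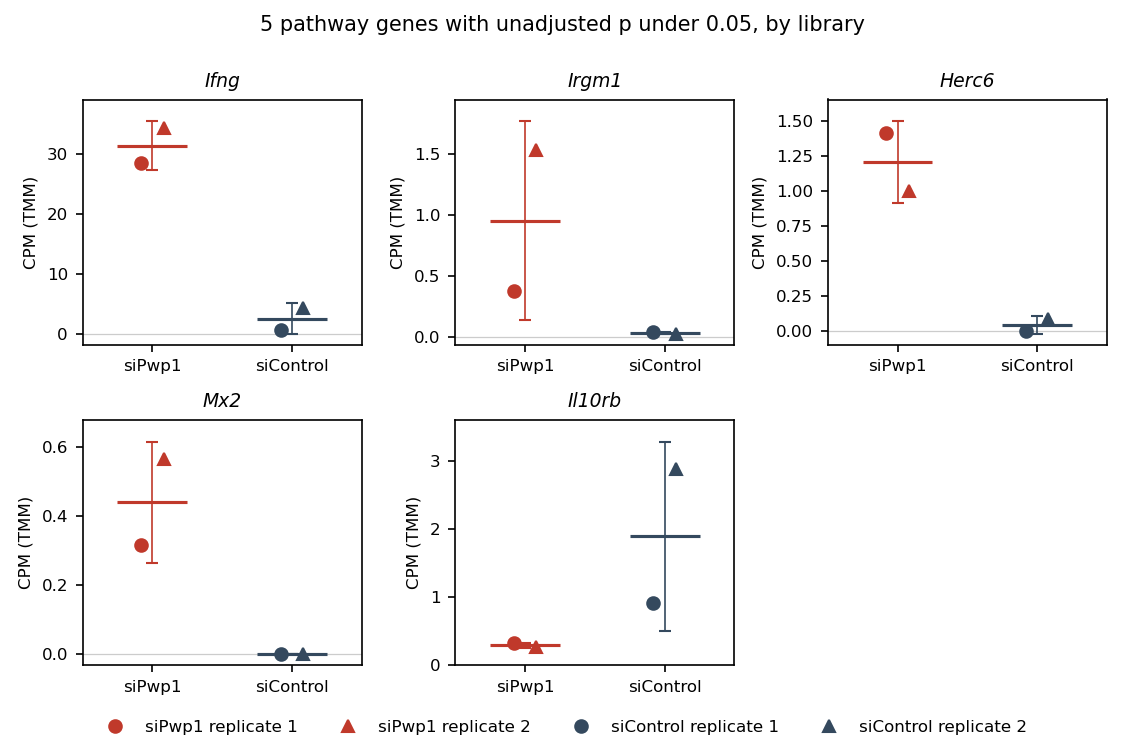
CPM by library of 5 pathway genes with an unadjusted p under 0.05, with siPwp1 at the left and siControl at the right of each panel, lines at group means and bars for SD (n = 2). Ifng stands at 28.5 and 34.2 CPM in siPwp1 and at 0.729 and 4.35 CPM in siControl, while Irgm1, Herc6 and Mx2 stay below 2 CPM in all libraries.

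Markers of blood and immune cells were measured beside these genes. Of the 17 listed, 8 were tested, 3 of them (Cd52, Cd74 and Hba-a2) were higher in both siPwp1 libraries, where 14.7% of all genes were, and 0 were lower in both, where 14.1% were. The list summed to 223.9 and 230.6 TPM in siPwp1 and 101.3 and 183.4 TPM in siControl, most of it Hba-a2 and Cd74. Hba-a2 alone stood at 132.56 and 138.77 TPM in siPwp1 and 36.29 and 111.26 TPM in siControl. Of the tested markers, Cd68 (-0.34) and Cd79a (-0.35) had log2 fold changes below 0, and the others were above 0. Cd52 stood at 2.77 and 1.59 CPM in siPwp1 and 0.521 and 0.432 CPM in siControl. The T cell gene Cd3e had no count in siPwp1 and 14 and 3 counts in siControl, and the leukocyte gene Ptprc had 0 and 10 counts in siPwp1 and 7 and 0 in siControl. Tyrobp, Fcer1g, Adgre1, Hbb-bs and Hbb-bt had no count in any library. The part of the markers that moved in the levels of Ifng and the interferon response genes was not tested. Cumulus and granulosa markers summed to 6.98 and 11.94 TPM in siPwp1 and 3.23 and 6.63 TPM in siControl, nearly all of it Amhr2, and sperm markers to 3.14 and 0.91 TPM in siPwp1 and 2.97 and 0 TPM in siControl.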

How the data were processed

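PolyA RNA of 4 libraries was read as deposited. The authors' files give RSEM expected counts per gene, not normalized, per the file headers, and TPM that the authors scaled to the same total in each library, per the file headers. Gene lengths in bases are also listed there. The submitters' processing notes name STAR 2.7.10, RSEM 1.3.3 and mm10. The sources used here give neither trimming nor the annotation release or strand setting. FPKM were not used.

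Expected counts were rounded and tested with edgeR 4.0.16 (quasi-likelihood, group as the single term, filterByExpr with a minimum count of 10, TMM) in R 4.3.3. P-values are two-sided with Benjamini-Hochberg adjustment over 13585 genes and a threshold of 0.05. Each SE is the size of the log2 fold change divided by the root of its F statistic. Alternatives included DESeq2 1.42.0, limma 3.58.1 on log2(TPM + 1), filters, DESeq2 size factors, the replicate number as a block and each library left out. The fits were tested on simulated data. The genes and lists were chosen with earlier results of these data known. Pathway genes were named by role for receptors and transducers, by the 2 highest mean TPM of each other list and by an unadjusted p under 0.05. Of those, Irf2bpl, Irf3, Rnaseh2b, Rnaseh2c, Ptpn2 and Pias2 are not described further, and 2 other pathway genes are not reported here. The nearest profiles were ranked by Euclidean distance of log2(CPM + 0.5), centred on each gene's mean. Positions are from GENCODE M21 on GRCm38, the assembly mm10 names. The overlapping genes named from it (Gm17334, Gm11626, Gm45717, Gm49751, Gm45193 and Gm19244) are not among the genes listed in each library. Counting intervals and floors leave out variation between embryos.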

Additional observations from a re-analysis of the deposited data

How the results depend on the processing

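Under all 11 alternatives tried, 0 of the interferon response genes that entered the test were called. These were 9 with no filter, 4 with the stricter filter, 7 with limma on TPM and 8 otherwise. The fits without a library take the spread from the group that still has a pair and from all genes. Of 75 log2 fold changes recomputed for the 8 tested genes, 72 kept their sign and 3 reversed. The reversals came from leaving out a library, where Bst2 ranged from -0.8 to 2.13 and Stat2 from -0.83 to 0.84. The lowest adjusted p was 0.123, for Ifi35 with the replicate number as a block. Across all genes, edgeR's 0 calls became 106 with no filter, 80 with the replicate block, 44 with DESeq2, and 6 to 142 with a library left out. The number of genes called stayed at 0 with the stricter filter, DESeq2 size factors, limma on TPM and an adjusted p threshold of 0.1. Prior degrees of freedom differed between the edgeR fits, and the cause was not tested. They were infinite with no filter and without siPwp1 replicate 1 or 2, where a gene's own spread has no weight in the test. Among pathway genes the call was 1 gene, Ifng, with no filter and with DESeq2. With a library left out, the log2 fold change of Ifng was 2.85 to 5.42. With the replicate block Ifng was called too (adjusted p = 0.00483), with 71 genes higher and 9 lower in all. No pathway gene was called with the stricter filter, with DESeq2 size factors or with limma on TPM. Deviations of replicate 2 correlated at 0.43 between siPwp1 and siControl across genes, but with 2 pairs and no label that ties the numbers, they were not taken to pair the libraries. The summed Ifitm log2 ratio of 0.38 was 0.14 to 0.59 with a library left out. Irf1, Isg15, Irgm1, Herc6 and Mx2 rest on few counts, and the part of depth in their levels was not tested.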
